A study of Mus musculus with 13 samples.

Results

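The genes described here mark the lymphocytes and antigen-presenting cells that live inside a squamous epithelium. A list of 35 gene symbols was split by role into 12 T cell genes, 14 genes of cytotoxicity, natural killer (NK) cells and tissue residence, and 9 genes of Langerhans and dendritic cells. Of the 35, 33 had a probe set annotated to that gene alone, out of 19934 genes with such a probe set, and Lck and Il2rg had none. After a filter on dim probe sets 25 of the 35 were tested, among 15875 genes. The 8 that did not pass were Cd3d, Gzma, Gzmb, Ncr1, Klrk1, Klrd1, Cd69 and Cd96.

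Expression was measured on 13 mouse whole-transcript arrays of epithelium freed from esophagus or forestomach with dispase. All animals carried L2-Cre on a mixed C57Bl/6 and 129 background. L2-Cre is known as a Cre line whose promoter is active in the squamous epithelium of the upper digestive tract. The groups were masses of the forestomach from 3 p120 flox/flox animals (412, 426 and 510), forestomach from 3 controls with wild-type p120 (214, 216 and 217), esophagus from 4 other flox/flox animals (193, 307, 313 and 335) and esophagus from the same 3 controls. p120-catenin, encoded by Ctnnd1, binds and stabilises classical cadherins. Since no flox/flox forestomach without a mass was measured, genotype and mass formation cannot be told apart there. The labels give neither age nor sex. Values are log2 intensities, and levels are set against each other only within a gene, or as means over the same genes. In bulk epithelium, fewer cells of a type and less RNA per cell cannot be told apart.

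Intraepithelial T cells are known to sit between epithelial cells, held there in part by the integrin chain CD103 (Itgae), which binds E-cadherin (Cdh1) on the epithelial side. They depend on interleukin-15, which epithelial and dendritic cells present and which signals through the receptor chain Il2rb. Langerhans cells are the dendritic cells of stratified epithelium and are defined by langerin (Cd207). On dendritic cells, CD80 and CD86 are the ligands that costimulate T cells through CD28.

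The promoters of 4 members are shown because the results turn on these genes. Cd80 was the single member called between genotypes, Cd5 differed between the control tissues, and Cd3g and Cd207 had the highest fitted changes in the esophagus. The sequences are from RefSeq (GRCm38.p6), where 24 of the 35 members were found, and each runs 5′ to 3′ on the strand of its gene from 250 bases before to 50 after the start. Cd80 lies at chr16:38458683-38458982 on the plus strand, and Cd5 at chr19:10738925-10739224, Cd3g at chr9:44980382-44980681 and Cd207 at chr6:83677808-83678107 on the minus strand. Capitals mark matches on either strand to the motifs of 4 families of transcription factors and to the TATA box, whose letters follow the sequences.
Cd80: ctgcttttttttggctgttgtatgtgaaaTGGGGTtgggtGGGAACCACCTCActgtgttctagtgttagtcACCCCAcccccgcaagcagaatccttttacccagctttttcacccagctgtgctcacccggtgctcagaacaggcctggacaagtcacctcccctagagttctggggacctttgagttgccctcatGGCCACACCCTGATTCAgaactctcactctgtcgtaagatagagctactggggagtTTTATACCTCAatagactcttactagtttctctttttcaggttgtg
Cd5: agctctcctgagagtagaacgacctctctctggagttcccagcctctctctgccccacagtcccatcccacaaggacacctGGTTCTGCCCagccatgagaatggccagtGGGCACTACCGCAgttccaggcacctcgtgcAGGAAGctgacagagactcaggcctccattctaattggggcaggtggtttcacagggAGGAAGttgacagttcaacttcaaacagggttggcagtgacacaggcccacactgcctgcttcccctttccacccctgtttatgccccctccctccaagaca
Cd3g: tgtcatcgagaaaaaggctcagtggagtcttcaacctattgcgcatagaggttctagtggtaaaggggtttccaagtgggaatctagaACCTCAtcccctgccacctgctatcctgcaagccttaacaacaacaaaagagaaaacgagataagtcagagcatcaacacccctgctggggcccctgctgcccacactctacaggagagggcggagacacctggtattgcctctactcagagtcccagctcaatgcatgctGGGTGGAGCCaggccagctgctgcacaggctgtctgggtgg
Cd207: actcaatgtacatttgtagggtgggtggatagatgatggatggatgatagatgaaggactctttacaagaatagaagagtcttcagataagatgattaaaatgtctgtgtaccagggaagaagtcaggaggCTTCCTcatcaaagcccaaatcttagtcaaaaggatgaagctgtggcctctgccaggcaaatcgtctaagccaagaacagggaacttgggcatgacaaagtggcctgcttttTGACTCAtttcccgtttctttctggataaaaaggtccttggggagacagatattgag
The Cd80 window held 4 RUNX, 2 NF-kappaB, 1 AP-1 and 1 TATA match, and the first run of capitals after its leading RUNX match joins an NF-kappaB match to a RUNX match. Its other NF-kappaB match runs directly into the AP-1 match, and its TATA match, just past the start, overlaps a RUNX match by its last base. The Cd5 window held 2 ETS, 2 NF-kappaB and 1 RUNX match, with an NF-kappaB match overlapping the RUNX match. The Cd3g window held 1 RUNX and 1 NF-kappaB match, and the Cd207 window 1 ETS match and, close to the start, 1 AP-1 match. RUNX factors, which act in T cells, were searched as TGNGGT, and 45.8% of 32851 promoters of the same length held a match. ETS factors, which act in many blood cells, were searched as AGGAAG, which 35.4% of those promoters held. NF-kappaB, which drives many inflammatory genes, was searched as GGG and CC with any 5 bases between them, and 50.8% of the promoters held that. AP-1, a factor of stimulated cells, was searched as TGANTCA, which was the rarest at 7.81%. The TATA box was searched as TATAAA, which 13.6% held.

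Single arrays stood apart before any group was compared. On flox/flox esophagus array 193, 23 of the 33 members had their highest level among the 7 esophagus arrays, and 19 had their highest level among all 13. The same counts over all genes are not given here. The pan-leukocyte gene Ptprc (CD45) was 8.94 on that array, 5.90, 6.60 and 7.65 on flox/flox esophagus arrays 307, 313 and 335, and 6.81, 5.05 and 6.13 on control esophagus arrays 214, 216 and 217. Another 3 esophagus arrays carried fibroblast and skeletal muscle RNA. The mean of 7 fibroblast genes was 9.40 and 10.09 on flox/flox arrays 307 and 335 and 10.96 on control array 214, against 6.10 to 6.41 on the other 4 esophagus arrays. Squamous epithelial genes were high on all 13 arrays, with means over 8 genes of 11.71 to 12.17. Ctnnd1 itself was 9.66, 9.91 and 9.51 in the masses, against 10.40, 10.14 and 10.23 in control forestomach (log2 change -0.56, limma adjusted p = 0.0145). In flox/flox esophagus it was 10.13, 9.95, 10.08 and 10.04, against 10.21, 10.33 and 10.50 in control esophagus (log2 change -0.29, limma adjusted p = 0.637). Where in Ctnnd1 its probes lie was not determined here, so these levels need not read the floxed exons.

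**Figure D1:**
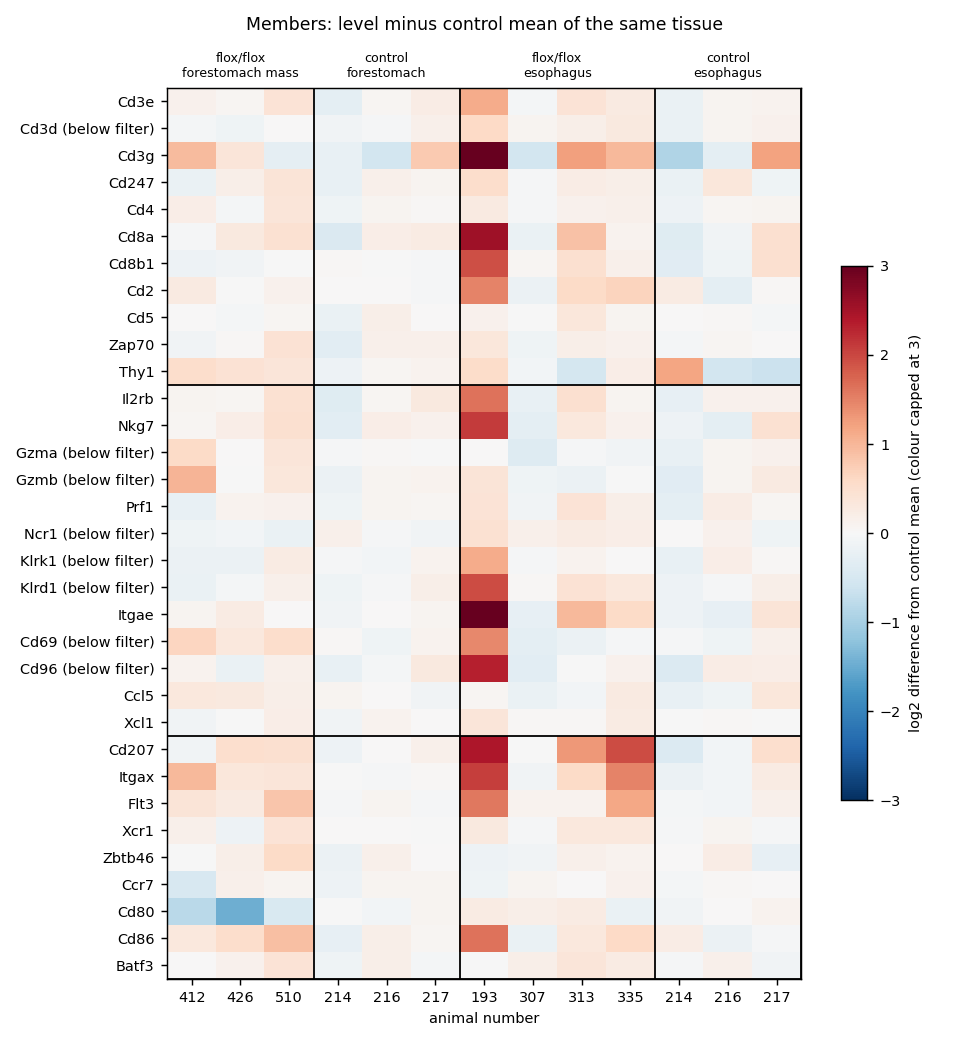
Log2 difference of each of the 33 members (rows, by role) from the control mean of the same tissue, on each of the 13 arrays (columns, by group and animal number), with colour capped at 3. The column of flox/flox esophagus array 193 is the reddest in the T cell and cytotoxic blocks, arrays 193 and 335 share red cells for Cd207, Itgax and Flt3, and the row of Cd80 is blue in all 3 masses.

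Among the T cell genes, no member was called in either genotype comparison. Cd3g, a chain of the CD3 signalling complex of the T cell receptor, was 9.15, 4.53, 6.29 and 6.05 on flox/flox esophagus arrays 193, 307, 313 and 335, against 4.16, 4.76 and 6.28 in control esophagus. Array 193 stood far above the rest, array 307 lay among the controls, and the groups overlapped. The fitted change was 1.44 ± 0.87 (SE, n = 4 against 3, limma adjusted p = 0.831). Without array 193 it was 0.55, and without arrays 214, 307 and 335 it was 2.20. In the masses Cd3g was 6.12, 5.54 and 4.91, against 4.95, 4.62 and 5.96 in control forestomach, and the groups overlapped again (0.35 ± 0.93, SE, limma adjusted p = 0.872). Cd3e, another CD3 chain, had a narrower range of 7.31, 6.13, 6.61 and 6.46 in flox/flox esophagus, against 6.00, 6.28 and 6.31 in control esophagus. Its fitted change was 0.43 ± 0.23 in the esophagus (SE, limma adjusted p = 0.786), with array 193 again on top, and it was 0.20 without that array and 0.67 without arrays 214, 307 and 335. In the forestomach it was 6.37, 6.30 and 6.66 in the masses, against 5.95, 6.30 and 6.45 in controls (0.20 ± 0.25, SE, limma adjusted p = 0.681).

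The coreceptor genes of cytotoxic and helper T cells were also highest in the esophagus on array 193. Cd8a, chosen like the other genes of this paragraph after its values were seen, was 8.58, 5.82, 6.91 and 6.13 in flox/flox esophagus, against 5.65, 5.93 and 6.50 in control esophagus. Array 193 exceeded the control mean by 2.55 for Cd8a and by 1.94 for its partner chain Cd8b1. For Cd4, which passed the filter level on 4 of the 13 arrays, the same difference was 0.26, and arrays 307, 313 and 335 lay at -0.03, 0.13 and 0.14. Cd2, an adhesion receptor of T and NK cells, lay 1.49 above the control mean on array 193, and Zap70, the kinase that binds the activated T cell receptor, 0.33. Without array 193 the fitted esophagus change was 0.26 for Cd8a, against 0.83 with it, 0.22 for Cd8b1, against 0.65, and 0.36 for Cd2, against 0.64. Without arrays 214, 307 and 335 these changes were 1.53, 1.04 and 1.16. The CD3 zeta chain Cd247 and the CD3 delta chain Cd3d lay 0.53 and 0.59 above the control mean on array 193, and in the masses their fitted changes were 0.12 and -0.06.

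Cd5 and Thy1, unlike the CD3 chains, did not have their highest esophagus level on array 193. Cd5, an inhibitory receptor on T cells, was 8.33, 8.19, 8.54 and 8.28 in flox/flox esophagus, against 8.22, 8.23 and 8.15 in control esophagus, so that array 193 lay only 0.13 above the control mean. In the masses it was 7.10, 7.04 and 7.15, against 6.90, 7.26 and 7.10 in control forestomach. The limma adjusted p was 0.915 in the esophagus and 0.975 in the forestomach. Thy1, a surface glycoprotein of mouse T cells and also of fibroblasts and neurons, was 7.80, 7.19, 6.74 and 7.46 in flox/flox esophagus, against 8.45, 6.71 and 6.61 in control esophagus. On array 193 it lay 0.54 above the control mean, much as the CD3 chains Cd247 and Cd3d did (0.53 and 0.59). Its highest value was on control array 214, where the fibroblast mean was also highest, and the part of fibroblast RNA in it was not tested. In the masses Thy1 was 7.25, 7.14 and 7.07, against 6.56, 6.78 and 6.81 in control forestomach. Those groups did not overlap, but the change of 0.44 ± 0.40 (SE) was not called (limma adjusted p = 0.567). The fibroblast means were 8.39, 9.20 and 6.92 in the masses, against 7.25, 6.32 and 6.20 in control forestomach.

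**Figure D2:**
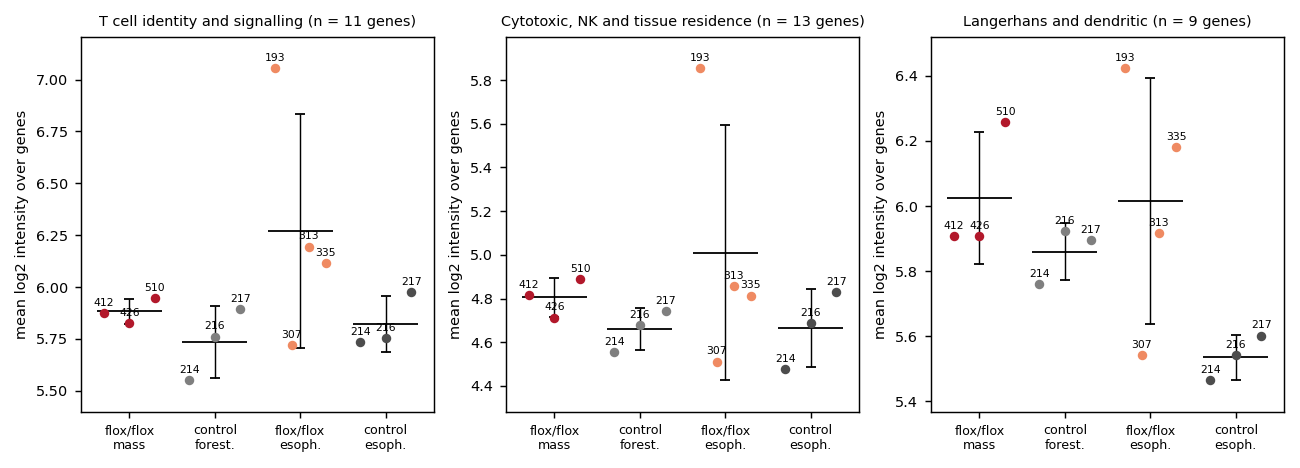
Mean log2 intensity of the members of each role (vertical axis) on each array, with the group mean (line) and SD (bar), and animal numbers beside the points. Array 193 lies above all other arrays in each of the 3 panels, and array 335 is second among the esophagus arrays in the Langerhans and dendritic panel.

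As a mean over the 11 T cell genes with a probe set, array 193 had 7.06, and the other flox/flox esophagus arrays 307, 313 and 335 had 5.72, 6.20 and 6.11, against 5.73, 5.76 and 5.98 in control esophagus. The masses had 5.88, 5.83 and 5.95, against 5.55, 5.76 and 5.89 in control forestomach. The masses were thus close together, and the 2 highest controls lay within or just below their range. The median fitted change over the 11 genes was 0.29 in the esophagus, where all 11 lay above 0, and 0.13 in the forestomach, where 9 did. Over all 19934 genes the medians were 0.01 and 0.00, with 10379 and 10151 genes above 0. Without array 193 the T cell median in the esophagus was 0.19. Without the fibroblast- and muscle-rich arrays 214, 307 and 335, where array 193 weighed more, it was 0.61. Without control array 214 the forestomach median was 0.02.

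Among the cytotoxic, NK and residence genes, Itgae, the CD103 chain that binds E-cadherin, varied most between arrays of the flox/flox esophagus. It was 8.73, 5.27, 6.49 and 6.08 on arrays 193, 307, 313 and 335, against 5.37, 5.28 and 5.91 in control esophagus. Arrays 193, 313 and 335 lay above every control and array 307 just below the lowest. The fitted change was 1.12 ± 0.59 (SE, limma adjusted p = 0.776), or 0.43 without array 193 and 2.01 without arrays 214, 307 and 335. In the forestomach Itgae was nearly level, at 5.74, 5.92 and 5.67 in the masses, against 5.56, 5.69 and 5.74 in controls (0.11 ± 0.63, SE, limma adjusted p = 0.941).

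The members of this role differed in how far array 193 lay above the control esophagus mean. The difference was 2.33 for Cd96, a receptor of T and NK cells, 1.97 for Klrd1 (CD94), 1.62 for Il2rb, 1.45 for Cd69, an early activation and residence marker, and 1.12 for Klrk1 (NKG2D). It was 2.10 for Nkg7, a protein of cytotoxic granules. Smaller differences were read for other genes: the NK receptor Ncr1 lay 0.46 above, perforin (Prf1) 0.40 above, granzyme A (Gzma) 0.01 above, granzyme B (Gzmb) 0.39 above, the chemokine Xcl1 0.37 above and the chemokine Ccl5 0.07 above. These genes other than Itgae, Prf1 and Ccl5 were chosen after their values were seen, and Gzma, Gzmb, Ncr1, Klrd1, Klrk1, Cd69 and Cd96 were below the filter and have no test. A small difference in a gene below the filter is limited by background. Ncr1 (NKp46), a receptor used as a marker of NK cells in the mouse, stayed between 3.80 and 4.39 on all 13 arrays. The NK part of the list therefore lacked this marker above the filter.

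Prf1 was 6.38, 5.87, 6.38 and 6.15 in flox/flox esophagus, against 5.70, 6.21 and 6.03 in control esophagus (0.21, limma adjusted p = 0.903). In the masses it was 5.98, 6.32 and 6.35, against 6.08, 6.30 and 6.26 in control forestomach (0.00, limma adjusted p = 0.998). Both pairs of groups overlapped. Ccl5, a chemokine that draws T cells and is made by activated T cells among others, was 6.57, 6.56 and 6.45 in the masses, against 6.35, 6.28 and 6.16 in control forestomach. These groups did not overlap, and the change of 0.26 ± 0.15 (SE) was not called (limma adjusted p = 0.325). In the esophagus Ccl5 was 6.45, 6.19, 6.31 and 6.66 in flox/flox arrays, against 6.17, 6.26 and 6.72 in controls (0.02, limma adjusted p = 0.998).

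Over the 13 genes of this role with a probe set, array 193 had a mean of 5.85, and arrays 307, 313 and 335 had 4.51, 4.86 and 4.81, against 4.48, 4.69 and 4.83 in control esophagus. The masses had 4.81, 4.71 and 4.89, against 4.55, 4.68 and 4.74 in control forestomach. The median fitted change was 0.27 in the esophagus, with 12 of 13 above 0, 0.05 without array 193 and 0.49 without arrays 214, 307 and 335. In the forestomach it was 0.11, with 10 of 13 above 0, and 0.01 without control array 214.

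Cd80 was the member of the Langerhans and dendritic role that changed. It was 6.24, 5.58 and 6.59 in the masses, against 7.04, 6.96 and 7.13 in control forestomach. The controls were tightly grouped, every mass lay below every control, and mass 426 was lowest. Cd80 fell 1.88-fold in the masses, to 6.14 ± 0.52 against 7.05 ± 0.08 in control forestomach (SD, n = 3 each), a log2 change of -0.91 ± 0.21 (SE, limma adjusted p = 0.0196). A second probe set of the gene read 5.89, 5.40 and 5.98 in the masses, against 6.48, 6.56 and 6.24 in control forestomach, a difference of -0.67. The call was lost without control forestomach array 214, 216 or 217 (limma adjusted p = 0.066, 0.0532 and 0.0731) and with the forestomach arrays fitted alone (0.096), and the other alternatives that tested it gave 0.00343 to 0.0407. In the esophagus Cd80 was 5.61, 5.54, 5.63 and 5.17 in flox/flox arrays, against 5.26, 5.39 and 5.48 in controls (0.11 ± 0.20, SE, limma adjusted p = 0.997). The difference between the genotype comparisons was -1.02 ± 0.29 (SE, limma adjusted p = 0.21). It was called when mass 510 was left out (-1.25, limma adjusted p = 0.0309).

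**Figure D3:**
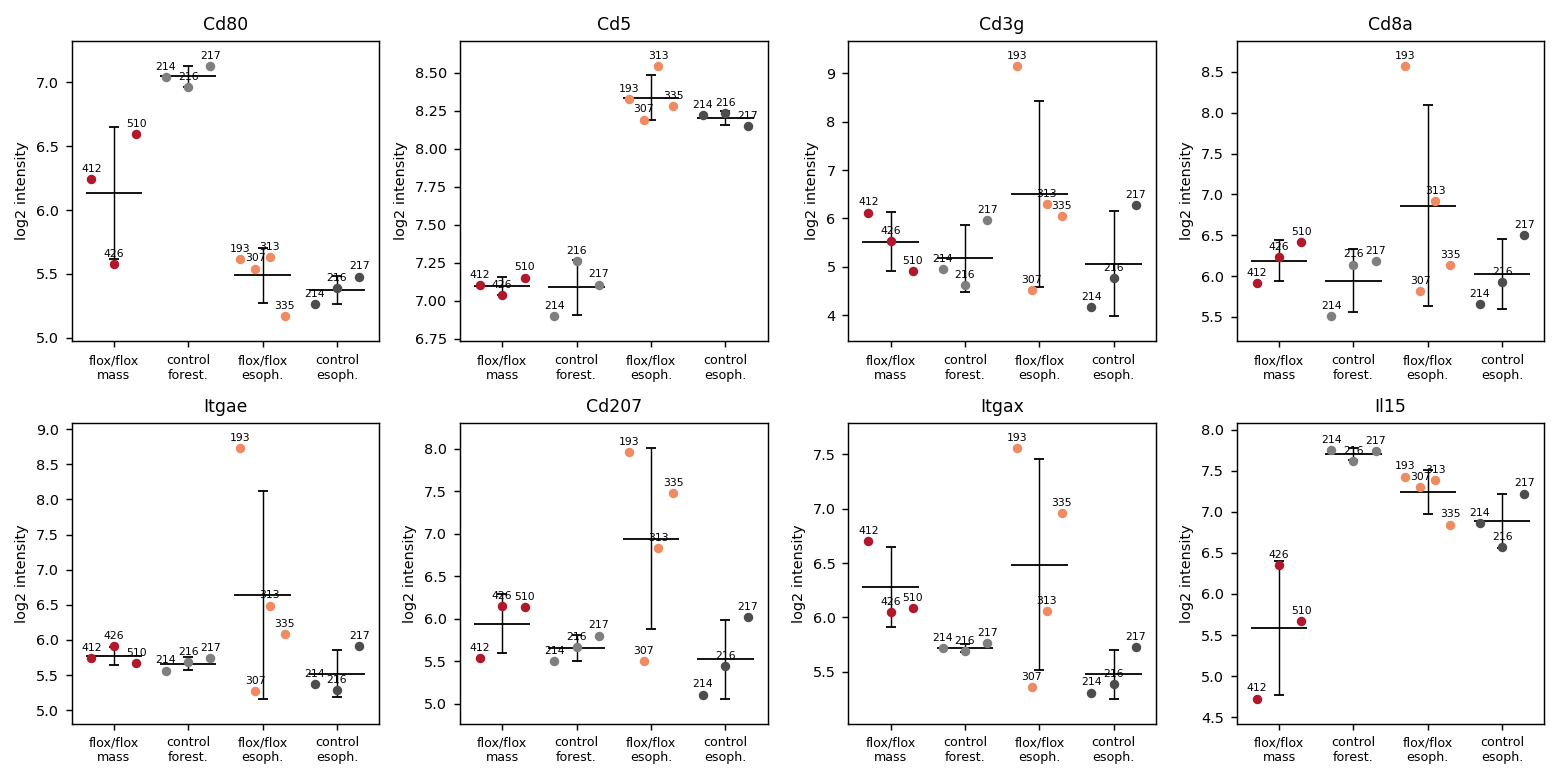
Log2 intensity of 7 members and of Il15 (vertical axes, each with its own scale) on each array, with the group mean (line) and SD (bar), and animal numbers beside the points. The masses lie below control forestomach for Cd80 and Il15, and array 193 lies highest for Cd3g, Cd8a, Itgae, Cd207 and Itgax.

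Cd86, the other CD28 ligand, did not go with Cd80. Like Flt3 and Itgax it was chosen after its values were seen. It was 5.03, 5.26 and 5.63 in the masses, against 4.48, 4.91 and 4.78 in control forestomach, so the masses lay above the controls (0.58 ± 0.36, SE, limma adjusted p = 0.351). Flt3, the receptor for the growth factor of dendritic cells, was 5.68, 5.55 and 6.11 in the masses, against 5.24, 5.37 and 5.26 in control forestomach. Itgax (CD11c), an integrin chain of dendritic cells and some macrophages, was 6.70, 6.05 and 6.08 in the masses, against 5.72, 5.69 and 5.76 in control forestomach. The groups did not overlap for either gene, and neither change was called (0.49 for Flt3, limma adjusted p = 0.416; 0.56 for Itgax, limma adjusted p = 0.479). The mean of 10 macrophage and monocyte genes was also higher, at 7.37, 6.77 and 6.41 in the masses, against 5.90, 5.92 and 6.00 in control forestomach, and its part in these values was not tested.

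Langerin had the largest esophagus change of the role. Cd207 was 7.96, 5.50, 6.84 and 7.48 in flox/flox esophagus, against 5.11, 5.44 and 6.02 in control esophagus. Arrays 193, 313 and 335 lay above every control and array 307 lay among them. The fitted change was 1.42 ± 0.46 (SE, n = 4 against 3), with a limma p of 0.00915 before and 0.572 after adjustment. Without array 193 it was 1.08, and it was 1.67 without arrays 214, 307 and 335, those with fibroblast and muscle RNA. In the masses Cd207 was 5.54, 6.15 and 6.14, against 5.50, 5.67 and 5.80 in control forestomach (0.29 ± 0.49, SE, limma adjusted p = 0.781), and the groups overlapped.

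Itgax and Flt3 had their 2 highest values among the 7 esophagus arrays on the same arrays as Cd207. Itgax was 7.56, 5.36, 6.06 and 6.96 in flox/flox esophagus, against 5.31, 5.39 and 5.73 in controls (1.01 ± 0.40, SE, limma adjusted p = 0.648). Flt3 was 6.85, 5.36, 5.37 and 6.43 in flox/flox esophagus, against 5.20, 5.17 and 5.42 in controls (0.74 ± 0.32, SE, limma adjusted p = 0.696). Without array 193 these changes were 0.65 and 0.46. On array 335, 3 members lay at least 1 above the control mean, and all 3, Cd207, Itgax and Flt3, belong to this role. The macrophage mean was 7.65 on array 335 and 6.47 on array 193, against 7.94, 5.43 and 5.42 on control arrays 214, 216 and 217. The part of macrophage RNA in these values was not tested.

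Of the transcription factors among the members, Batf3 and Zbtb46, neither was called. Batf3, needed for the cross-presenting type, was 6.55, 6.74, 6.93 and 6.82 in flox/flox esophagus, against 6.53, 6.73 and 6.46 in controls (0.19, limma adjusted p = 0.887). In the masses it was 6.80, 6.90 and 7.20, against 6.66, 6.97 and 6.73 in control forestomach (0.18, limma adjusted p = 0.472). Zbtb46, expressed in classical dendritic cells, was 5.93, 5.98, 6.23 and 6.18 in flox/flox esophagus, against 6.09, 6.29 and 5.84 in controls (0.00, limma adjusted p = 1). In the masses it was 6.28, 6.46 and 6.85, against 6.12, 6.43 and 6.29 in control forestomach (0.25, limma adjusted p = 0.398). On array 193 neither factor exceeded the control esophagus mean: Batf3 lay at -0.02 from it and Zbtb46 at -0.15. The chemokine receptor Ccr7, which guides dendritic cells to lymph nodes, lay at -0.12. Xcr1, the receptor for Xcl1 on cross-presenting dendritic cells, lay 0.30 above it, and its fitted change was 0.23 in the esophagus and 0.13 in the masses.

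**Figure D4:**
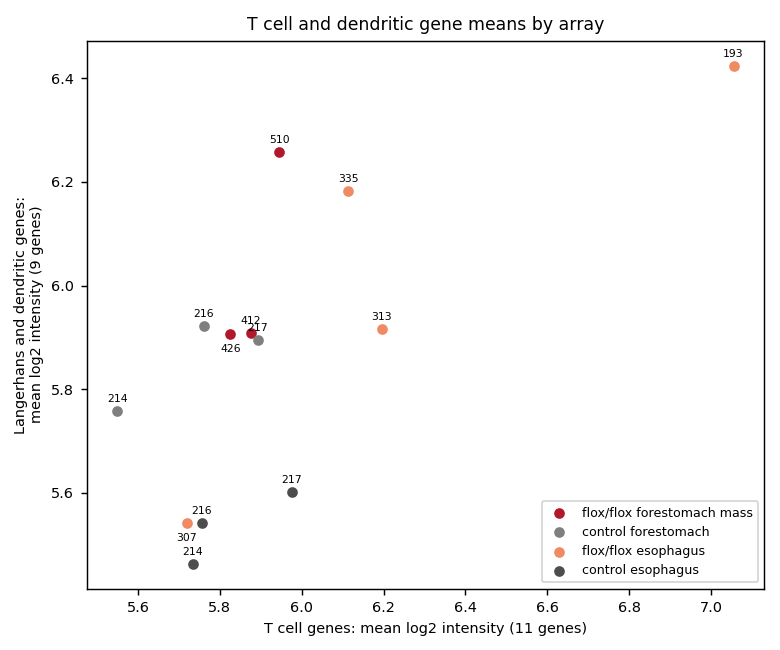
Mean log2 intensity of the 9 Langerhans and dendritic genes (vertical axis) against that of the 11 T cell genes (horizontal axis), 1 point for each of the 13 arrays, coloured by group and marked with the animal number. Array 193 is far right and highest, while mass 510 and esophagus array 335 are high on the vertical axis at T cell means of 5.95 and 6.11.

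The 9 Langerhans and dendritic genes averaged 6.42, 5.54, 5.92 and 6.18 on flox/flox esophagus arrays 193, 307, 313 and 335, against 5.46, 5.54 and 5.60 in control esophagus. The masses had means of 5.91, 5.91 and 6.26, against 5.76, 5.92 and 5.89 in control forestomach. Array 307 was level with the esophagus controls and the other 3 were above them. The median fitted change was 0.23 in the esophagus, with 9 of 9 above 0, and 0.24 without array 193. In the forestomach it was 0.25, with 7 of 9 above 0, and 0.09 without mass 510.

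In the forestomach comparison 1 of the 25 members tested was called, Cd80, while 10.7% of all genes tested were called, 8.4% as lower and 2.31% as higher. The members' share is not above that background. Thy1, Ccl5, Itgax, Flt3 and Cd86 lay above the controls with no overlap, as 10.3% of all genes tested did, and Cd80 below, as 17.5% did. In the esophagus comparison 0 of 25 were called, where the background was 0.0126%. There 4 members had a limma p under 0.05 before adjustment (Cd207, Itgax, Flt3 and Cd2), against 6.98% of all genes, and 0 of the 25 lay wholly above or below the controls, against 4.18% and 6.1% of all genes. Among the members below the filter, Ncr1 lay above the esophagus controls with no overlap. Cd69 did so in the forestomach, at 4.28, 3.96 and 4.16 in the masses, against 3.66, 3.52 and 3.73 in controls. The difference between the genotype comparisons was called for 0 of 25 (background 0.139%, with 0.0819% higher and 0.0567% lower), with 1 member under 0.05 before adjustment, Cd80, against 10.5% of all genes. A p that misses the threshold in groups of 3 and 4 with such spread does not show that levels were equal.

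**Figure D5:**
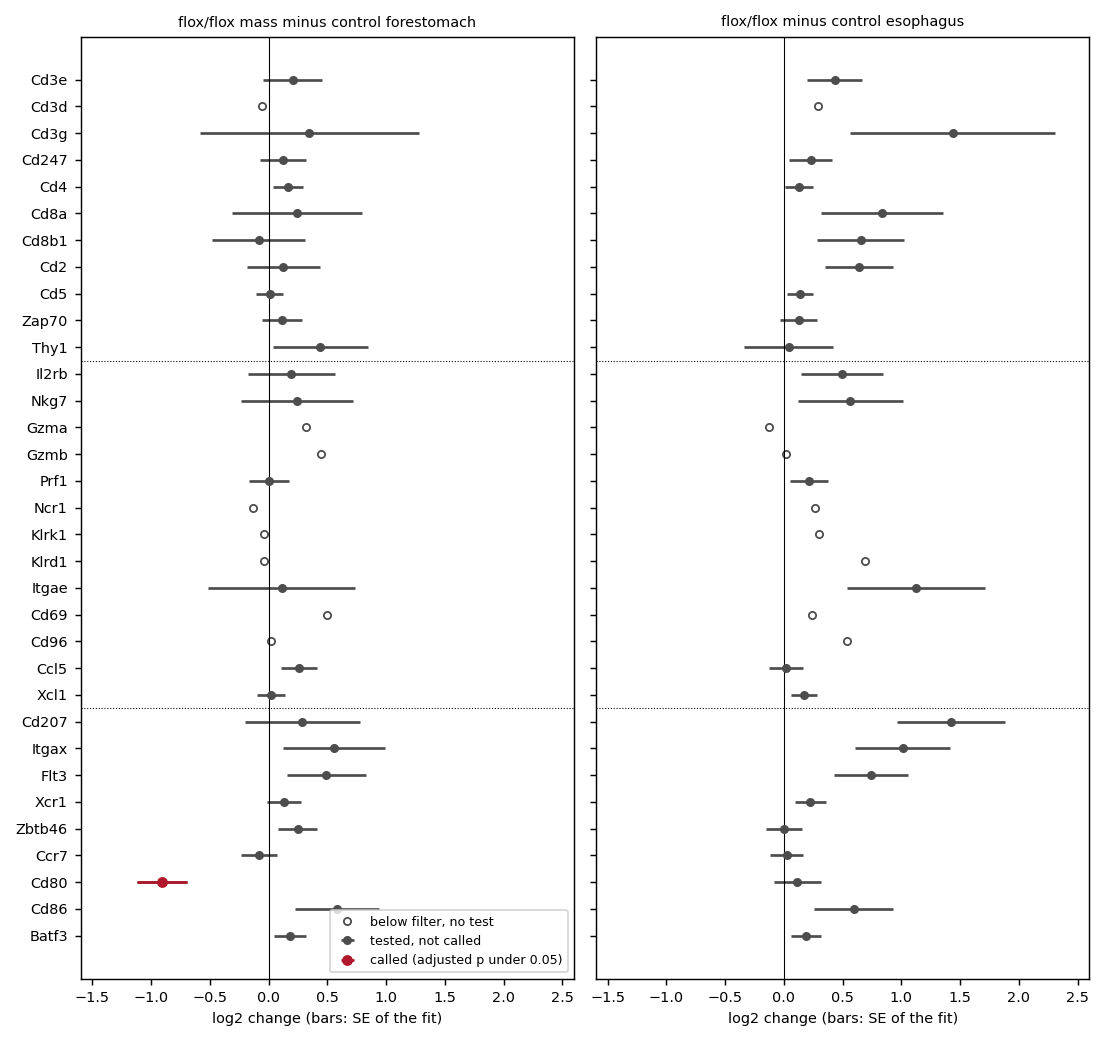
Fitted log2 change of each of the 33 members (rows, by role) with its SE, in the flox/flox masses against control forestomach (left) and in flox/flox against control esophagus (right). Cd80 in the left panel is the single called member, and Cd3g, Itgae, Cd8a, Cd207 and Itgax lie farthest right in the right panel with long bars; open points were below the filter and have no test.

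Control forestomach and control esophagus came from the same 3 animals and differed in Cd80 and Cd5. Cd80 was 7.05 ± 0.08 in control forestomach and 5.38 ± 0.11 in control esophagus (SD, n = 3 each), 3.19-fold higher in forestomach (log2 difference 1.67 ± 0.21, SE, limma adjusted p = 0.000697). Its level in the masses thus lay between those of the control epithelia. Cd5 ran the other way, with 7.09 ± 0.18 in control forestomach and 8.20 ± 0.05 in control esophagus, 2.16-fold lower in forestomach (-1.11 ± 0.11, SE, limma adjusted p = 0.000179). Both calls held under every alternative that tested the gene. Both differences were larger in size than that of any other member. Over the 11 T cell genes the median difference was 0.07, with 7 genes above 0 and Cd5 below. Over the 9 Langerhans and dendritic genes it was 0.21, with 8 above 0, Cd80 among them. For all 19934 genes it was 0.04, with 11367 above 0. The 2 called members compare with a background of 6.67%, or 3.51% higher and 3.16% lower, and 4 members had a limma p under 0.05 before adjustment (Cd5, Cd80, Ccr7 and Xcl1), against 21.6% of all genes. Ccr7 was 5.90, 6.13 and 6.14 in control forestomach, against 5.61, 5.71 and 5.68 in control esophagus (0.39 ± 0.15, SE, limma adjusted p = 0.156). It was called with the animal as a block (limma adjusted p = 0.0399 as a random and 0.0414 as a fixed block), where 3 members were called. When single arrays were left out, the limma adjusted p of Ccr7 ran from 0.0284 to 0.376. Ccr7 was chosen after its values were seen.

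Ligands and signals that hold, feed or draw these cells were read from a further list of 23 genes, of which 12 were tested. In the forestomach comparison 6 of the 12 lay above the controls with no overlap: Flt3l, Csf1, Tgfb1, Cxcl9, Cxcl10 and Cxcl16. The 1 below was Il15. Of all genes, 10.3% lay above and 17.5% below. Before adjustment 7 of the 12 had a limma p under 0.05 there, against 24.8% of all genes. Of all genes tested, 10.7% were called in the forestomach and 0.0126% in the esophagus. Il15, the cytokine that sustains intraepithelial T and NK cells, was the single one called between genotypes. It was 4.73, 6.35 and 5.67 in the masses, against 7.76, 7.62 and 7.74 in control forestomach. No mass came near the controls, and mass 412 was lowest. Il15 fell 4.36-fold, to 5.58 ± 0.82 in the masses against 7.70 ± 0.07 in control forestomach (SD, n = 3 each), a log2 change of -2.12 ± 0.32 (SE, limma adjusted p = 0.00286), and it stayed called under every alternative. In the esophagus it was 7.43, 7.30, 7.39 and 6.85 in flox/flox arrays, against 6.86, 6.57 and 7.22 in controls (0.36 ± 0.30, SE, limma adjusted p = 0.928). The difference between the genotype comparisons was -2.48 ± 0.44 (SE) with a limma adjusted p of 0.057. It was called with the animal as a random block (limma adjusted p = 0.0216). Other alternatives called it too: a filter at log2 7, quantile normalization, an offset of 16, an intensity trend and array weights (0.0347, 0.0399, 0.0373, 0.044 and 0.0375). So did leaving out mass 412, 426 or 510 (0.0327, 0.00495 and 0.0293). It was not called with no filter (0.0615), after median centring (0.0526) or without any single control or esophagus array. The alternatives put the adjusted p of this Il15 difference between 0.00495 and 0.243. Its receptor chain Il15ra, which presents the cytokine, did not pass (-0.11, limma adjusted p = 0.839), and the receptor chain Il2rb on the responding cells was 5.09, 5.07 and 5.46 in the masses, against 4.65, 5.08 and 5.31 in control forestomach. Cdh1, the partner of CD103, was 11.70, 11.40 and 11.20 in the masses, against 11.20, 11.08 and 11.07 in control forestomach (0.32 ± 0.12, SE, limma adjusted p = 0.106).

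Further genes of these cell types gave no genotype call. Of 26 other T and NK genes 11 were tested and 0 were called in either genotype comparison. The called share of all genes tested was 10.7% in the forestomach and 0.0126% in the esophagus. Of 18 other dendritic and antigen presentation genes 16 were tested and 0 were called, while 6 had a limma p under 0.05 before adjustment in the esophagus, where 6.98% of all genes did. Among them Ly75 (DEC-205), an endocytic receptor of dendritic cells, chosen after its values were seen, was 7.02, 5.33, 5.96 and 6.67 in flox/flox esophagus, against 5.32, 5.35 and 5.18 in controls. Arrays 193 and 335 were again the highest and array 307 lay among the controls (0.96 ± 0.31, SE, limma adjusted p = 0.572). Irf8, a factor of dendritic cells and monocytes, also chosen after its values were seen, was 6.99, 6.13, 6.21 and 6.83 in flox/flox esophagus, against 6.21, 6.12 and 5.89 in controls (0.46 ± 0.20, SE, limma adjusted p = 0.696). Runx3, a factor of Langerhans cells and cytotoxic T cells chosen in the same way, was 6.66, 6.45 and 6.80 in the masses, against 6.13, 6.44 and 6.29 in control forestomach. Its groups did not overlap, and the change was not called (0.35 ± 0.15, SE, limma adjusted p = 0.17). Of the 16 dendritic and antigen presentation genes tested, 5 lay above control forestomach with no overlap, Runx3 among them, and 0 below. Of all genes tested, 10.3% lay above and 17.5% below. Between the control tissues Gata3 and Flt3l, also chosen after their values were seen, were called. Gata3, a factor of T cells and of squamous epithelium, averaged 8.93 ± 0.15 in control forestomach and 6.08 ± 0.24 in control esophagus (SD, n = 3 each, limma adjusted p = 0.000434). Flt3l, the ligand of Flt3, averaged 6.06 ± 0.12 in control forestomach and 7.32 ± 0.14 in control esophagus (SD, n = 3 each, limma adjusted p = 0.000593).

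Means over genes of other leukocytes and of stroma were also read in the masses. The mean of 8 neutrophil genes was 7.51, 6.15 and 7.32 in the masses, against 5.30, 5.34 and 5.66 in control forestomach. Of the 6 tested, 2 were called as higher, S100a8 and S100a9, where 2.31% of all genes were. The median change over the 8 genes was 0.81, with 7 above 0, and changes ran from -0.34 for Cxcr2 to 5.43 for S100a8. Ly6g, below the filter, was 4.94, 4.61 and 4.87 in the masses, against 4.59, 4.79 and 4.77 in control forestomach. The mean thus leaned on S100a8 and S100a9. S100a8, an alarmin of neutrophils that stressed squamous epithelium also makes, was 11.43, 8.05 and 12.59 in the masses, against 5.05, 5.10 and 5.63 in control forestomach. The mean of 8 endothelial genes was 7.30, 7.30 and 6.39 in the masses, against 6.25, 5.59 and 5.55 in control forestomach. In the forestomach comparison 0 of 8 endothelial, 0 of 9 macrophage, 0 of 7 fibroblast and 0 of 4 B and plasma cell genes tested were called. Of all genes tested, 10.7% were called there. Above control forestomach with no overlap lay 6 of the endothelial, 8 of the macrophage, 3 of the fibroblast and 2 of the B and plasma cell genes. In each list 0 lay below. The shares of all genes tested were 10.3% above and 17.5% below. The B and plasma cell genes had means of 4.86 to 5.04 in the masses and 4.37 to 4.56 in control forestomach, with a median change of 0.08 over 7 genes and 2.47 for Jchain, the joining chain of secreted antibody. No value of any member was at the floor of 1 intensity unit on any array. What part these cells had in the levels of Cd80, Cd86, Itgax and Flt3 was not tested.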

How the data were processed

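Total RNA of dispase-freed epithelium was hybridised to 13 Affymetrix arrays, and the deposited values are linear intensity values made with GCRMA, per the submitters' processing notes; no version is stated there. GCRMA corrects background by probe sequence, and the levels of dim probe sets are limited by background. Values below 1 were set to 1 (0 were) and put on the log2 scale. Probe sets had 1 gene (21633 of 34729), several (1306) or none (11790); the highest-mean probe set stood for a gene, and genes above log2 5 on at least 3 arrays were tested. limma 3.58.1 in R 4.3.3 fitted 4 group means on all 13 arrays (9 residual degrees of freedom, eBayes), with Benjamini-Hochberg adjustment over 15875 genes and calls at an adjusted p under 0.05; the script was tested on simulated data. Array medians were 65.3 to 72.4, and precision is limited by how few arrays there are.

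Members, lists, tests and the naming rule were chosen with earlier results of these data known. The rule gives every array for members called between genotypes, the 3 brightest tested in each role and those with the largest change; other names were chosen after their values were seen. Alternatives were other filters, scalings, offsets, variance models, array weights, subsets, blocks and leaving out arrays. Replicates are different animals, except that controls 214, 216 and 217 gave both tissues; deviations of their control arrays correlated at 0.401, 0.398 and 0.315, against -0.425 to 0.129 between different animals.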

Additional observations from a re-analysis of the deposited data

Results flagged for a closer look

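In the flox/flox esophagus group of 4 arrays, 3 of the 33 members had an array far from the other 3. Klrk1 was 4.88 on array 193 and at most 3.86 on the others, and Cd69 was 5.35 on array 193 and at most 3.86 on the others; both are below the filter. Xcr1, a chemokine receptor of cross-presenting dendritic cells, was 4.88 on array 307 and at least 5.22 on the others, while control esophagus averaged 4.92 ± 0.07 (SD, n = 3). Chance flags about 1 in 20 groups.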

How the results depend on the processing

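Of 1327 log2 changes recomputed under alternatives, 1258 kept direction and side of the threshold, 4 lost a call (all Cd80 in the forestomach), 16 gained one and 49 changed sign. All sign changes were of changes not called.

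The count of members called in the forestomach was 0, not 1, at the stricter filter (log2 above 7), where Cd80 was not tested, and with forestomach arrays alone, and 0 to 1 when single arrays were left out. In the esophagus it was 0 throughout, and for the difference of the genotype comparisons 0 to 1 without single arrays. Between control tissues it was 2, and 2 to 3 when single arrays were left out. There it was 1 at the stricter filter and 4 with array weights (Cd5, Xcl1, Ccr7 and Cd80). With the replicate block (animal, random or fixed) it was 3, with Ccr7 added; the genotype groups share no animals, so a fixed block applies to the control tissues alone, and the block changed no other member's call. Outside the members, the Il15 difference between the genotype comparisons was called with the random block (limma adjusted p = 0.0216), as it was under several other alternatives. Over all genes the forestomach count of 1700 was 1102 with array weights, 452 with forestomach arrays alone and 747 to 2238 without single arrays. The esophagus count of 2 was 0 to 7, the count of 22 for the difference was 5 to 373, and the tissue count of 1059 was 496 to 3802, with 2670 under the random and 2348 under the fixed replicate block.

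Sign changes by setting were as follows. In the forestomach Prf1 was -0.0076 after quantile normalization, -0.0093 after median centring and -0.0101 with array weights, and Cd5 -0.0014 after centring and -0.0217 with weights. In the esophagus Zbtb46 was -0.0105 after quantile normalization and -0.0087 after centring, and Ccl5 -0.0763 with weights and -0.1122 without arrays 214, 307 and 335. In the difference Batf3 was 0.0385 after quantile normalization and 0.034 without those 3 arrays, and Thy1 -0.1707 without them. Between control tissues Cd3e was -0.0017 after centring, and without those arrays Cd3e was -0.057, Thy1 0.052, Cd3g -0.3438 and Cd207 -0.0742. Without single arrays, the forestomach changes ranged from -0.0866 to 0.0955 for Cd5 and from -0.0662 to 0.1184 for Prf1. Esophagus changes ranged from -0.0894 to 0.1858 for Ccl5, -0.2841 to 0.6362 for Thy1 and -0.1127 to 0.1115 for Zbtb46. Differences ranged from -0.1225 to 0.0884 for Batf3, -0.3953 to 4e-04 for Cd3e and -0.1971 to 0.7233 for Thy1. Tissue differences ranged from -0.2296 to 0.0456 for Ccl5, -0.0742 to 0.382 for Cd207, -0.0678 to 0.1833 for Cd3e, -0.3438 to 0.7138 for Cd3g and -0.8683 to 0.052 for Thy1. The cause was not tested. No detection calls were used here, so the low levels of the dim members are limited by background.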
